A study of Mus musculus with 90 samples.

Results

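The D-type cyclins Ccnd1, Ccnd2 and Ccnd3 and the kinases Cdk4, Cdk6 and Cdk2 were followed while cultured mouse myoblasts without functional MyoD went from growth into differentiation. The members were all probe sets that the platform annotation gives to 1 of these 6 genes alone. They numbered 14 of the 36899 probe sets on 3 Affymetrix chips, and 11 of the 14 passed the filter on low signal. All 30 RNA samples were MyoD-/- primary myoblasts of skeletal muscle, with an estimated purity given as 100%. They came from 3 cultures named 1999, P6 and P10, each sampled at 0, 6, 12, 18, 24, 36 and 48 h and on days 3, 4 and 7 of differentiation. Growth medium with fetal bovine serum and basic FGF was replaced by differentiation medium with horse serum. No wild-type cells were among the samples, so every change below is a change within MyoD-/- cells. The labels do not say what the culture names stand for or whether the cultures came from separate animals, and p-values therefore measure only the spread between these samples.

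D-type cyclins are the cyclins through which growth factors reach the cell cycle. They bind Cdk4 or Cdk6, and the active kinase phosphorylates the retinoblastoma protein, which releases E2F factors that switch on genes of DNA synthesis. Cdk2 acts after them with cyclins E and A and completes that phosphorylation. In skeletal muscle, cyclin D1 and its kinases are known to hold back myogenic factors in growing myoblasts, whereas cyclin D3 is known to accumulate in differentiating myoblasts and to bind the retinoblastoma protein there.

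The values are MAS5 signals, the summary brightness of a probe set on an array, and no signal is set against that of another probe set. Array means lay within each chip between 2174 and 2532, between 1946 and 2142, and between 2442 and 3009 units. A change was tested in limma with culture as a block on log2 of the signal plus the 25th percentile of its chip, and adjusted by the Benjamini-Hochberg method over all 24307 probe sets tested. A change passed at an adjusted p under 0.05. The Myod1 signal lay between 2598 and 6889 over the 30 samples, and whether its probes lie inside the deleted part was not known here. Summed signals of 9 myoblast markers lay between 20462 and 44403 in all samples. Of these 9 markers, 3 (Des, Cdh15 and Itga7) were higher on day 7 than at 0 h and none was lower. The 8 markers of dividing cells were all lower at 24 h and on day 7 than at 0 h. The arrays were scanned in several sessions, and the 1999 arrays of days 4 and 7 came from another scanner type than all other dated arrays. No array of the first chip from day 4 or 7 shared a session with the 0 h array of its culture. On that chip the same held for P10 from 12 h on and for P6 from day 3 on.

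Ccnd1, the D cyclin known as a target of growth factor signals, was high at 0 h and low from 12 h to day 7. Probe set 94232_at gave 7006, 9347 and 8432 units at 24 h in cultures P10, P6 and 1999, and 26344, 24532 and 24866 at 0 h. On day 7 it gave 6829, 6554 and 7046 in the same order of cultures. Each culture was far below its own 0 h value, and the signals of the later times did not overlap those of 0 h at any of the 9 times. The log2 change was -1.61 ± 0.27 (SE, n = 3 cultures) at 24 h, a 3.05-fold fall (adjusted p = 0.00039), and -1.87 ± 0.27 on day 7, a 3.66-fold fall (adjusted p = 4.3e-05). Ccnd1 94232_at was lower at 8 of 9 times, and the joint test over all times gave an adjusted p of 0.0013.

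The cultures stood apart at 6 h. There the signals were 15603, 14013 and 7757 in P10, P6 and 1999, so that 1999 had already reached its later level while the other 2 stood between. The change at 6 h, -1.07 ± 0.27, missed the threshold (adjusted p = 0.056) and passed with scan session in place of culture as the block (adjusted p = 0.041). At 12 h the signals were 11173, 8330.0 and 8629, and the 3 cultures lay close together. At 48 h culture 1999 stood apart at 16649, against 6610.2 in P10 and 8050.5 in P6, and the change without that array was -1.78 in place of -1.38. In order of mean signal, 0 h came first with 25248 ± 964 (SD, n = 3), 6 h second with 12458 ± 4148, and day 7 last with 6809.6 ± 247. Only 2 of the 9 neighbouring pairs in that order, 0 h with 6 h and 18 h with 36 h, differed by more than the larger SD of the pair. Within 1 scan session, the change from 0 h to 24 h was -1.38 in P6 and -1.55 in 1999. With culture and scan session both as blocks the 94232_at calls from 12 h to day 7 held, while the joint test gave an adjusted p of 0.062. The calls at 24 h, 36 h and days 3, 4 and 7 held under all 16 alternatives, while 48 h missed without P6 (adjusted p = 0.095) and without P10 (adjusted p = 0.061). The 12 h call was also lost without P6 (adjusted p = 0.11) and without P10 (adjusted p = 0.054), and the 18 h call without P6 (adjusted p = 0.073). With only the 6 samples compared, the 12 h and 48 h calls were lost.

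The other Ccnd1 probe sets were also lower after 0 h, at fewer times. Probe set 94231_at gave 1369, 1546 and 1868 on day 7 in P10, P6 and 1999, against 5901, 7039 and 5750.0 at 0 h, and probe set 167827_at gave 1925, 2582 and 3507, against 11618, 15039 and 11368. Both sets of day 7 values lay below all 0 h values. The log2 changes on day 7 were -1.89 ± 0.44 (adjusted p = 0.004) for 94231_at and -2.19 ± 0.50 (adjusted p = 0.0033) for 167827_at. They were lower at 4 and 6 of the 9 times. Without the culture block 94231_at missed at 24 h (adjusted p = 0.078), and 167827_at missed at 18 h (adjusted p = 0.061) and at 48 h (adjusted p = 0.06). Every call of these 2 probe sets, day 7 included, was lost without P6 and also without P10. The 24 h call of 94231_at was also lost with culture and scan session both as blocks. On day 4 these 2 probe sets were high in culture 1999 alone, with 6603 for 94231_at and 18921 for 167827_at, while 94232_at gave 8703 in that sample. At 48 h they were high in P6, with 4280.4 and 8313, while 94232_at was high in 1999. Over the 30 samples the log2 values of 94232_at correlated with those of 94231_at at r = 0.694 and with 167827_at at r = 0.655, and 94231_at with 167827_at at r = 0.897. Samples in these correlations share cultures and times.

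Ccnd3, the D cyclin known to stay in muscle cells that have left the cell cycle, moved the other way. Probe set 160545_at gave 16662, 13379 and 12915 units on day 7 in cultures P10, P6 and 1999, against 3687, 4064 and 4852 at 0 h. All 3 cultures were higher on day 7, with no overlap. The log2 change was 1.74 ± 0.31 (SE of the fit), a 3.34-fold rise (adjusted p = 0.00035). Ccnd3 160545_at was higher at 7 of 9 times, every one from 18 h on, and the joint test gave an adjusted p of 0.0044.

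From 6 h to day 4 the cultures lay apart at most times, although the test of early to late change by culture did not pass for 160545_at (adjusted p = 0.1). At 6 h the signals were 8549, 3974 and 6065 in P10, P6 and 1999, and at 18 h they were 15133, 10333 and 7403. P10 and 1999 were above their own 0 h values by 6 h and P6 by 18 h. At 24 h they were 15225, 9880.1 and 5340.3, where 1999 was little above its 0 h value. The log2 change at 24 h was 2.01 in P10 and 1.26 in P6, but 0.14 in culture 1999. The fitted change was 1.13 ± 0.31 (adjusted p = 0.022). Without the culture block the changes at 18 h, 24 h and 36 h no longer passed (adjusted p = 0.08, 0.15 and 0.17), nor did the joint test (adjusted p = 0.12). At 48 h the cultures were close, at 12320.1, 12052 and 10274, and on day 4 they were apart again, at 18925, 14329 and 7756. The log2 change on day 4 was 2.32 in P10, 1.79 in P6 and only 0.66 in 1999. At 48 h, within 1 scan session, the change was 1.54 in P6 and 1.06 in 1999. With culture and scan session both as blocks the change passed at 18 h and 48 h, and on day 7 it was 1.53 (adjusted p = 0.098). The calls from 18 h to day 3 were lost without P6, those from 18 h to day 4 without P10, and that of day 7 held without either. With only the 6 samples compared, the calls at 18 h, 24 h, 36 h and days 3 and 4 were lost. With scan session in place of culture as the block, those at 24 h, 36 h and days 3 and 4 were lost. The mean signal was 14319 ± 2042 on day 7, against 4201 ± 595 at 0 h (SD, n = 3). In the order of means 0 h came lowest, then 6 h, 12 h, 36 h, 24 h, 18 h, 48 h and days 3, 4 and 7, and none of the 9 neighbouring pairs in that order differed by more than the larger SD.

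Summed signals of 10 markers of differentiating muscle also differed between cultures. At 24 h they were 430093 in P10, 83775 in P6 and 15072 in 1999, against 17512, 7913 and 22218 at 0 h. At 36 h they were 470018, 79464 and 86515, so that 1999 was above P6, whereas Ccnd3 gave 9218 in P6 and 6029.9 in 1999. On day 3 they were 479378, 377803 and 16210, and on day 4 they were 622044, 380074 and 24828. Culture 1999 thus stood near its 0 h sum on days 3 and 4. On day 7 the sums were 598327, 406657 and 192018. Of the 10 markers 4 were higher at 24 h and 9 on day 7, and none was lower. The markers' part in the Ccnd3 difference was not tested. In these bulk samples fewer cells of a type and less RNA per cell cannot be told apart.

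**Figure D1:**
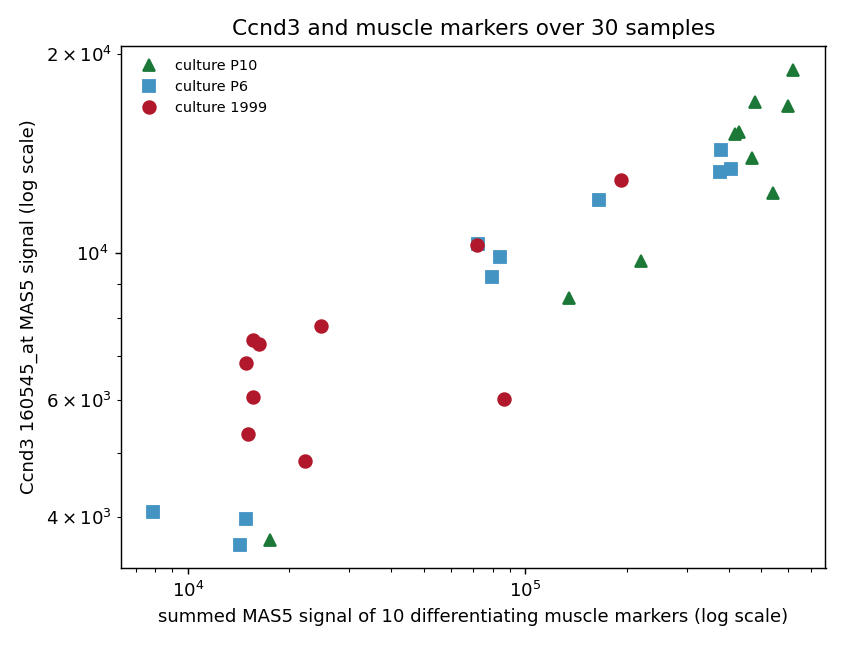
Ccnd3 signal (vertical, MAS5 units, log scale) against the summed signal of 10 markers of differentiating muscle (horizontal, MAS5 units, log scale), 1 point for each of 30 samples. The P10 points reach the upper right by 18 h, whereas the 1999 point farthest right is that of day 7, where the summed signal is 192018 and Ccnd3 is 12915.

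The other Ccnd3 probe sets gave no change that passed at any of the 9 times. Probe set 107370_at gave 2078, 1447 and 1239 on day 7 in P10, P6 and 1999, against 1329.7, 1349 and 1195 at 0 h, which overlapped. Its change was 0.23 ± 0.21, with a 95% interval of -0.21 to 0.67 (adjusted p = 0.57), which excludes a rise of the size measured by 160545_at. Probe set 128841_r_at, whose suffix marks a departure from the standard probe design, spanned 85.9 to 1769 and had a day 7 change of 0.46 ± 0.55 (interval -0.68 to 1.60, adjusted p = 0.68). Over the 30 samples 160545_at correlated with them at r = 0.158 and r = -0.0989. The Ccnd3 rise therefore rests on probe set 160545_at.

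RefSeq (build GRCm38.p6) lists 2 start sites for Ccnd3, and both promoters are shown since the transcript behind each probe set was not known here. Capitals mark GGGCGG or its reverse complement, the motif of Sp1-type factors, searched on both strands in the 250 bases before and 50 after each start. The first lies at chr17:47504801-47505100 and the second at chr17:47593217-47593516, both on the plus strand.
Ccnd3 first start: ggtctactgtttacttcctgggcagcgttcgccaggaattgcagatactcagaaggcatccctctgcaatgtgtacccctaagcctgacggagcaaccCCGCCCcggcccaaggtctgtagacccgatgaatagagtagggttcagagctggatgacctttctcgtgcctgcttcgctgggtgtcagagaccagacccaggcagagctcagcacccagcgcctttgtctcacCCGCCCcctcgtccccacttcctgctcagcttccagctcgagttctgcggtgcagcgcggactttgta
Ccnd3 second start: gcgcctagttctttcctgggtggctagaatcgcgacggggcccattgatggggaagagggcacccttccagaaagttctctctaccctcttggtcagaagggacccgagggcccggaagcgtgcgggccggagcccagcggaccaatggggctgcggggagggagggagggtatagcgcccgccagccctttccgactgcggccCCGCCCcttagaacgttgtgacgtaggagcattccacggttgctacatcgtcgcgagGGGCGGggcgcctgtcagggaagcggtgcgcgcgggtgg
Each held 2 such matches, and 35.7% of 32851 mouse promoters of this length hold at least 1. Neither held CACGTG, TTTNNCGC, or the general E-box CANNTG, which includes CACGTG and which 72.3% of the promoters hold.

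Ccnd2, the third D cyclin, gave no change from 0 h that passed. Probe set 97504_at gave 2183, 3102 and 10424 on day 7 in P10, P6 and 1999, against 2119, 3427 and 5417 at 0 h. The day 7 values overlapped those of 0 h, and only 1999 was clearly above its own 0 h signal. The change was 0.28 ± 0.37 (interval -0.49 to 1.04, adjusted p = 0.72), and the joint test gave an adjusted p of 0.66. Without the 1999 arrays of days 4 and 7 the sign turned, at -0.18. The highest mean was 5236 ± 4516 on day 7 and the lowest 2247 ± 579.9 at 18 h (SD, n = 3), and no neighbouring pair in the order differed by more than the larger SD.

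**Figure D2:**
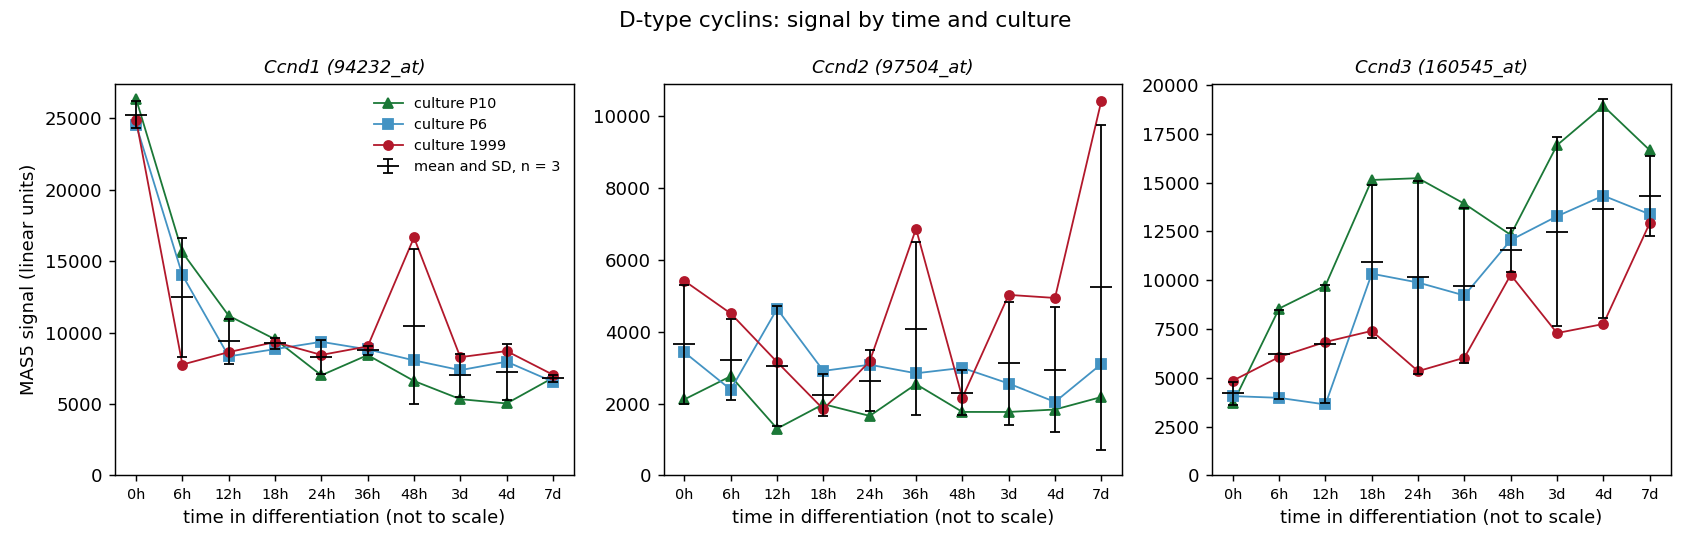
MAS5 signal (linear units) of Ccnd1, Ccnd2 and Ccnd3 against time (not to scale), with a line for each culture and black bars for the mean and SD of 3 cultures. Ccnd1 drops to 12458 at 6 h on average, against 25248 at 0 h. Ccnd3 lies highest in P10 and lowest in 1999 from 18 h on, and Ccnd2 shows no shared course.

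Cdk4, a kinase partner of the D cyclins, declined slowly through the whole course by its probe set 160538_at. Probe set 160538_at gave 8469, 9641 and 11653 units on day 7 in cultures P10, P6 and 1999, against 20917, 18336 and 19351 at 0 h. At 24 h the signals were 15367, 12152 and 14184. From 12 h on, the 3 later values lay below all 3 at 0 h. The log2 change was -0.49 ± 0.17 at 24 h, which missed the threshold (adjusted p = 0.089), and -0.98 ± 0.17 on day 7, a 1.97-fold fall (adjusted p = 0.00036). Cdk4 160538_at was lower at 4 of 9 times, namely 48 h and days 3, 4 and 7, and the joint test gave an adjusted p of 0.0025. The call at 48 h was lost without the culture block (adjusted p = 0.058). Those of 48 h, day 3 and day 4 were lost without P6, without P10 and with only the 6 samples compared.

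The mean Cdk4 signal followed the order of time without exception, with 19534 ± 1300.3 at 0 h, 17393 ± 1688 at 6 h, 13901 ± 1626 at 24 h, 12525 ± 3500.0 at 48 h, 10509.7 ± 2701 on day 3 and 9921 ± 1610.4 on day 7 (SD, n = 3). Only the 2 earliest neighbouring pairs, 0 h with 6 h and 6 h with 12 h, differed by more than the larger SD. At 48 h culture 1999 stood above the others at 16560.3, against 10705 in P10 and 10311 in P6. The change within 1 scan session was -0.82 at 48 h in P6 and -0.22 in 1999, and -0.50 on day 3 in 1999. With culture and scan session both as blocks the change on day 7 was -0.98 with an adjusted p of 0.053. The second Cdk4 probe set, 101017_at, gave 1829, 1850.3 and 2641 on day 7 in P10, P6 and 1999, against 4041, 3115 and 3272 at 0 h. Its change of -0.70 ± 0.24 missed the threshold (adjusted p = 0.051), passed without culture 1999 (adjusted p = 0.045), and was the largest of its 9. Means of 101017_at did not follow the order of time. They were 3476 ± 495 at 0 h, 3791 ± 969 at 6 h and 3657 ± 882 at 24 h (SD, n = 3). The 2 Cdk4 probe sets correlated at r = 0.615 over the 30 samples.

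The Cdk4 promoter is shown because Cdk4 is a known target of the transcription factor Myc, whose binding motif CACGTG it carries 4 times. It lies at chr10:127063285-127063584 on the plus strand in RefSeq (GRCm38.p6). Capitals mark CACGTG, which reads the same on both strands, and GGGCGG or its reverse complement.
Cdk4: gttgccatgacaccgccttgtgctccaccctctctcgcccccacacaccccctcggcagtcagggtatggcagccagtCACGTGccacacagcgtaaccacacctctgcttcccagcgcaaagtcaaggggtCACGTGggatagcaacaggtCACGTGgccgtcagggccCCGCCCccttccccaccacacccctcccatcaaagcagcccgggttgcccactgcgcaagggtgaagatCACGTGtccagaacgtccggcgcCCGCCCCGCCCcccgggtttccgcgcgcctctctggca
The share of all promoters with at least 1 CACGTG is 7.15%. The Cdk6 promoter held 1 CACGTG and 1 TTTNNCGC, an E2F-type motif that 5.17% of promoters hold, and the Cdk2 promoter held 1 TTTNNCGC and 6 GGGCGG. Such a match is a description of letters and not a measured site. Myc itself averaged 279 ± 152 units on day 7, against 1852 ± 418 at 0 h (SD, n = 3), a log2 change of -2.36 ± 0.64 (adjusted p = 0.013). The Myc call was lost without culture 1999 or P10 and with scan session as a block.

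Cdk6, the other kinase partner of the D cyclins, was lower late than early in 2 cultures and not in the third, and no change from 0 h over all 3 passed. Probe set 113777_at gave 2422, 1909 and 7057 on day 7 in P10, P6 and 1999, against 6005, 7701 and 7915 at 0 h. The groups overlapped through 1999 alone. The change on day 7 was -1.08 ± 0.44 (interval -1.99 to -0.18, adjusted p = 0.11), and the joint test gave an adjusted p of 0.5. Without culture 1999 the day 7 change was -1.55 (adjusted p = 0.0091). The highest single values were 14017 at 36 h in 1999 and 13028 at 12 h in P6, and no neighbouring pair in the order of means differed by more than the larger SD. The other 2 Cdk6 probe sets were above the chip median in none of 30 arrays and were not tested: 109445_at spanned 36 to 771 and 111594_at 65.7 to 751.

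Cdk2, the kinase of cyclins E and A, gave no change that passed. Probe set 94412_at gave 1036, 965 and 1109.7 on day 7 in P10, P6 and 1999, against 899, 1286 and 1417 at 0 h, and the groups overlapped. The change was -0.17 ± 0.24 (interval -0.66 to 0.32, adjusted p = 0.72), and the joint test gave an adjusted p of 0.89. All 30 values lay between 538 and 1563, and no neighbouring pair in the order of means differed by more than the larger SD. The second Cdk2 probe set, 94411_at, spanned 26.3 to 420.4, was above the chip median in no array and was not tested.

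**Figure D3:**
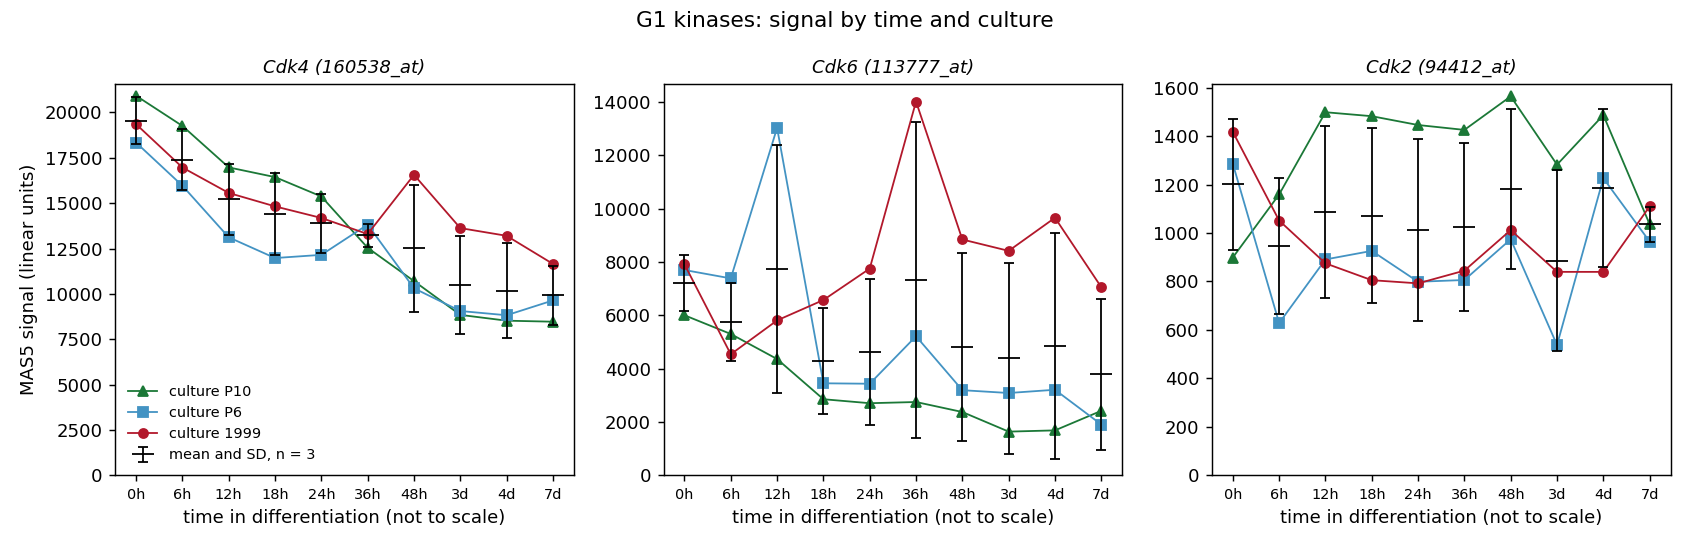
MAS5 signal (linear units) of Cdk4, Cdk6 and Cdk2 against time (not to scale), with a line for each culture and black bars for the mean and SD of 3 cultures. Cdk4 falls in every culture, to a mean of 9921 on day 7, Cdk6 stays high in 1999 only, and Cdk2 lies highest in P10 at the times from 6 h to day 4.

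Counted over the 11 tested probe sets, members were among the changes at most times. At 6 h 0 of 11 passed, where 1.10% of all tested probe sets passed, and 3 members had an unadjusted p under 0.05. There was 1 at 12 h (3.49%). There were 3 at 18 h (8.73%), 4 at 24 h (8.30%) and 3 at 36 h (7.87%). At 48 h 5 passed (11.1%), as on day 3 (9.97%) and day 7 (14.9%), and 3 passed on day 4 (11.0%). The single member higher at each time from 18 h on was Ccnd3 160545_at, and all others that passed were Ccnd1 or Cdk4 probe sets that were lower. The median log2 change of the 11 was -0.41 at 24 h and -0.70 on day 7, beside -0.0046 and -0.05 over all tested probe sets. In the joint test 3 of 11 passed (8.31%). Between neighbouring times from 6 h on, 0 of 11 passed at any of 8 steps in limma, where at most 0.128% (18 h against 12 h) and otherwise 0.00411% (24 h against 18 h) or 0.00% of all probe sets passed. Over these 8 steps 6 member changes had an unadjusted p under 0.05. Of the 29 single calls, 8 held without P6 and 8 without P10, while 26 held without 1999. With only the 6 samples compared, 15 of the 29 held.

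**Figure D4:**
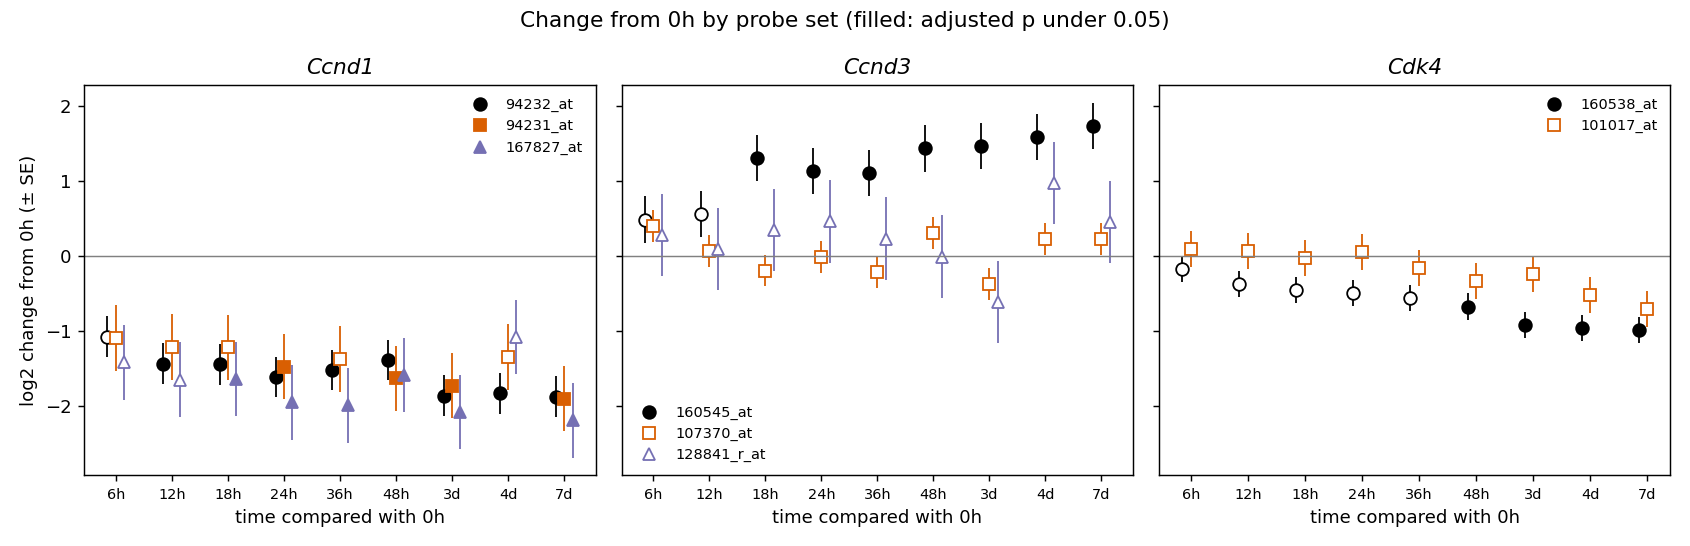
Fitted log2 change from 0 h (vertical, bars show SE) at each of 9 later times (horizontal) for every tested probe set of Ccnd1, Ccnd3 and Cdk4, with filled symbols for an adjusted p under 0.05. All 3 Ccnd1 probe sets lie below 0, 1 of 3 Ccnd3 probe sets lies above 1 from 18 h on, and both Cdk4 probe sets are at their lowest on day 7.

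Cdk6 113777_at changed from early to late differently in culture 1999 than in P10 and P6. Its signals in P10 lay at 1643 to 2422 late (days 3, 4 and 7), against 4364 to 6005 early (0, 6 and 12 h). In P6 they lay at 1909 to 3212 late, against 7386 to 13028 early, and in 1999 at 7057 to 9659 late, against 4543 to 7915 early. In P10 and P6 late signals were thus lower with no overlap, and in 1999 they overlapped. The late minus early log2 difference was -1.33 in P10, -1.66 in P6 and 0.47 in 1999. The gap was -1.80 ± 0.36 for P10 minus 1999 and -2.13 ± 0.36 for P6 minus 1999 (adjusted p = 0.0054). Of the 11 member probe sets this was the only one to pass the test of early to late change by culture, which 5.56% of all tested probe sets passed. The call was lost without the 1999 arrays of days 4 and 7, which came from another scanner type (adjusted p = 0.088). In the same test, unadjusted p-values were 0.0044 to 0.034 for the tested Ccnd1 and Cdk4 probe sets and Ccnd3 160545_at. In each of these, culture 1999 changed least or the other way. For Ccnd1 167827_at the late minus early difference was -1.70 in P10, -0.92 in P6 and 0.34 in 1999. Ccnd2, Cdk2 and the other Ccnd3 probe sets had unadjusted p-values of 0.13 to 0.9.

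The level over all times differed between cultures for 4 of the 11 probe sets, where 24.0% of all tested probe sets did. Ccnd2 97504_at averaged 1992 in P10, 2999.7 in P6 and 4753 in 1999, a log2 difference of -1.07 ± 0.20 for P10 minus 1999 (adjusted p = 0.0014). Cdk6 113777_at averaged 3212, 5163 and 8059 in the same order, a difference of -1.31 ± 0.24 (adjusted p = 0.00083). Both genes were thus lowest in P10 and highest in 1999. Ccnd3 160545_at ran the other way, at 13106, 9414 and 7476, a difference of 0.74 ± 0.17 (adjusted p = 0.0059). Cdk2 94412_at averaged 1328, 904 and 959, a difference of 0.43 ± 0.13 (adjusted p = 0.0089). Without P10 none of these 4 differences passed.

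Fibroblast markers did not share 1 order of the cultures. Summed signals of 7 of 9 fibroblast markers were 17534 in P10, 15157 in P6 and 97008 in 1999 at 0 h. On day 7 they were 48061, 45113 and 104251. The high sums of 1999 came from Col1a2, a collagen I chain, whose mean over all times was 241 in P10, 101 in P6 and 54183 in 1999. Of the 7 markers 3 were highest in 1999 (Col1a2, Pdgfra and Fbln1) and 4 in P10 (Col1a1, Col3a1, Dcn and Postn), and Col3a1, Dcn and Postn were lowest in 1999. By day 7, 3 of the 7 markers rose. Of the adipocyte, macrophage and endothelial markers 1 of 6, 2 of 6 and 1 of 5 passed the filter on low signal. The part of these cells in the culture differences of Cdk6, Ccnd2, Ccnd3 and Cdk2 was not tested, and a culture's name, its scan sessions and its cells cannot be told apart.

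**Figure D5:**
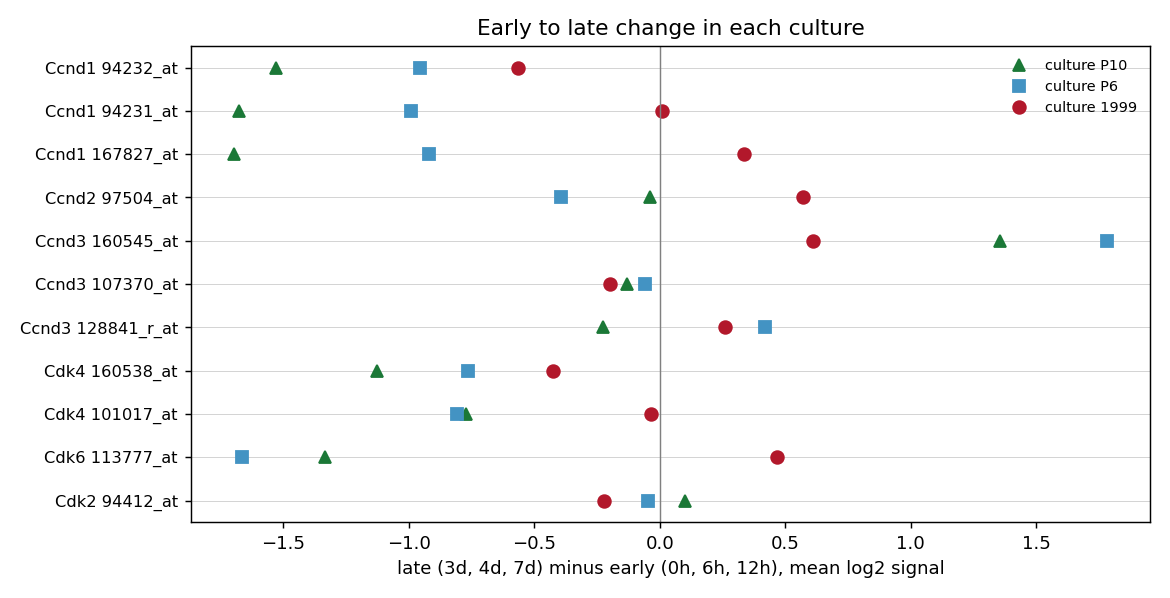
Late (days 3, 4 and 7) minus early (0, 6 and 12 h) mean log2 signal (horizontal) for each of the 11 tested probe sets (vertical), 1 symbol per culture. For Cdk6 the P10 and P6 symbols lie at -1.33 and -1.66 and the 1999 symbol at 0.47, and for Ccnd3 160545_at all 3 lie above 0.

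The E2F target genes of S phase, which lie downstream of the G1 kinases, fell with few exceptions. Of 17 tested E2F target genes of S phase, 16 were lower at 24 h (3.86% of all tested probe sets were) and on day 7 (7.31%), with median log2 changes of -2.13 and -2.15. The smallest p-values on day 7 were those of Mcm5 and Mcm4, subunits of the replicative helicase, and Cdc6, which loads it. Mcm5 averaged 699 ± 93 on day 7, against 7392 ± 1845 at 0 h (SD, n = 3), and its log2 change was -3.18 ± 0.30 on day 7 (adjusted p = 2e-07). For Mcm4 the log2 change was -2.49 ± 0.23 on day 7 (adjusted p = 1.7e-07), and for Cdc6 it was -2.04 ± 0.20 on day 7 (adjusted p = 4.2e-07). The remaining one, Mcm6, another helicase subunit, had changes of 0.54 ± 0.44 at 24 h (adjusted p = 0.56) and 0.05 ± 0.44 on day 7 (adjusted p = 0.97). Among 10 E2F and DP factors, 3 were lower at 24 h and 4 on day 7, and none was higher. Those were the repressor-type factors E2f7 and E2f8, the partner Tfdp1 and, on day 7, E2f5, with a log2 change in E2f8 of -2.08 ± 0.35 on day 7 (adjusted p = 0.00018). The E2f5 call was lost under 8 of 16 alternatives, among them no culture block and leaving out any 1 culture. On day 7 the E2f8 call was lost with scan session as a block, alone or beside culture, and the E2f7 call without P10. At 24 h the E2f7 call was lost under 5 and the E2f8 call under 3 of 16 alternatives.

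Among 13 other G1 and S cyclins and activators, 5 were lower at 24 h and 6 on day 7. They included Ccna2, a cyclin partner of Cdk2, with a log2 change of -2.65 ± 0.27 on day 7 (adjusted p = 5.3e-07), and the kinase-binding subunits Cks2, with a log2 change of -3.43 ± 0.22 on day 7 (adjusted p = 1.3e-09), and Cks1b, with a log2 change of -2.15 ± 0.24 on day 7 (adjusted p = 1.9e-06). Of 12 other cyclin-dependent kinases, Cdk1, the kinase of mitosis, was lower at both times, with a log2 change of -4.20 ± 0.43 on day 7 (adjusted p = 5e-07). Cdk8 passed on day 7, with a log2 change of -0.92 ± 0.25 on day 7 (adjusted p = 0.013), and Cdk19 was higher at 24 h, with a log2 change of 0.72 ± 0.21 at 24 h (adjusted p = 0.029). The Cdk8 call was lost without the culture block, with scan session as a block and without P6 or P10, and the Cdk19 call without the culture block and without any 1 culture. Of 10 other cyclins, the mitotic Ccnb2 and Ccnf were lower at both times and Ccnc on day 7, while Ccng2, a cyclin known from resting cells, was higher, with a log2 change of 1.83 ± 0.29 at 24 h (adjusted p = 2e-04) and 1.67 ± 0.29 on day 7 (adjusted p = 0.00029). The Ccnc call was lost under 8 of 16 alternatives, among them no culture block and leaving out 1999 or P10.

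Cdk inhibitors restrain the G1 kinases. Of 6 tested Cdk inhibitors only Cdkn1a, which encodes p21, passed at 24 h or on day 7, and it was higher at both (all tested probe sets, 4.44% at 24 h and 7.64% on day 7). It averaged 33005 ± 9792 on day 7, against 8286 ± 644 at 0 h (SD, n = 3). Its log2 change was 1.47 ± 0.25 at 24 h (adjusted p = 0.00035) and 1.93 ± 0.25 on day 7 (adjusted p = 8.6e-06). Of the 2 pocket proteins tested, Rb1, the retinoblastoma protein, was higher, with a log2 change of 1.03 ± 0.26 on day 7 (adjusted p = 0.0073), and its relative Rbl1 was lower, with a log2 change of -1.35 ± 0.25 on day 7 (adjusted p = 0.00054). Cdkn1b, another Cdk inhibitor, and Rbl2, another pocket protein, had no tested probe set, so nothing is known of them here. The Cdkn1a call at 24 h was lost without the culture block and without P6 or P10, and its late minus early log2 change was 1.18 in P10, 1.08 in P6 and 0.22 in 1999. Rb1 missed the threshold on day 7 without the culture block, without culture P10 or 1999, and with culture and scan session as blocks. Of 7 genes of D cyclin turnover, only Usp2, a deubiquitinase known to act on cyclin D1, passed at 24 h or on day 7, with a log2 change of 2.98 ± 0.46 on day 7 (adjusted p = 7.7e-05). The Usp2 call was lost under 6 of 16 alternatives at 24 h, and on day 7 with culture and scan session as blocks. Among 16 mitogen signals upstream of the D cyclins, 2 were higher and 1 lower at 24 h, and 4 were higher and 4 lower on day 7. The transcription factor Fos was higher, with a log2 change of 3.97 ± 0.59 on day 7 (adjusted p = 5.1e-05), as were the transcription factors Stat5a and Stat3, at 0.76 and 0.69. Among those lower on day 7 were Etv4, at -1.22, Fosl1, at -2.31, and Myc, all of which encode transcription factors. The receptor gene Met was also lower, at -1.24, and Egr1 was also higher, at 1.12. Whether the Met and Egr1 calls held under the alternatives was not examined. On day 7 the calls of Stat3, Stat5a and Fosl1 were lost with scan session as a block, and that of Stat3 also without the culture block. Leaving out 1 culture ended the calls of Stat3 (P6 or P10), Stat5a (P10), Fosl1 (P6) and Etv4 (1999).

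For each member the 3 genes most alike were taken from 12367 other genes by Pearson's r of log2 signal over the 30 samples, which share cultures and times. Culture levels were not removed, so r takes in differences between cultures as well as the course in time. Each member stood by its representative probe set, and its other probe sets were not compared. Ccnd3 160545_at was most like Actn3, a muscle alpha-actinin (r = 0.947), Pygm, muscle glycogen phosphorylase (r = 0.942), and Bin1, an amphiphysin (r = 0.932). For Cdk4 they were Fxyd5 (r = 0.904), Cyrib (r = 0.868) and Aqp1, a water channel (r = 0.866). For Cdk6 they were Mob1a (r = 0.895), Zfp36l2, an RNA-binding protein (r = 0.886), and Rcbtb1 (r = 0.884). For Ccnd1 they were Acot7 (r = 0.855), Prim2, a primase subunit (r = 0.841), and the pseudogene Hmga2-ps1 (r = 0.832). The closest genes to Cdk2, N4bp3, Atp5mpl and Tamm41, and to Ccnd2, Frat2, Anapc11 and Spryd3, reached r of at most 0.805 and 0.793. Among the members themselves, Ccnd1 and Cdk4 correlated at r = 0.789, while Ccnd3 160545_at correlated negatively with Cdk6 (r = -0.796), Cdk4 (r = -0.684) and Ccnd1 (r = -0.668).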

How the data were processed

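RNA from 30 samples was hybridised to 3 Affymetrix chips each, MG_U74Av2, MG_U74Bv2 and MG_U74Cv2 (90 arrays). The deposited values are MAS5 signal intensities on a linear scale, per the submitters' processing notes, and other steps are not given in the sources used here. The deposited instrument records were read only for scan session and scanner type.

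Probe sets above the chip median on at least 3 of 30 arrays were kept (24307 of 36899), a constant equal to each chip's 25th percentile of signal (119.8, 270.1 and 213 units) was added, and log2 values were fitted per chip with limma 3.58.1 (R 4.3.3) on time and culture, with all 30 arrays sharing 1 spread estimate. p-values were adjusted over the 3 chips together. A fold change on this scale understates the change of low signals. The number of arrays limits the precision.

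Culture was the block because each culture name recurs at all 10 times. Deviations from time means correlated at a median of 0.44, 0.232 and 0.0877 within a culture on the 3 chips, and -0.199, -0.0846 and -0.0359 between cultures. Over 0.1 were 125, 100 and 61 of 135 pairs within a culture.

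The members and gene lists were chosen with earlier results of these data known. Named are all member probe sets, the 3 genes most alike to each member, and up to 3 genes per direction of each list by p on day 7, or all of a list with 5 or fewer passing. Met, Egr1 and Mcm6 were named beside these to complete counts, and Cdkn1b and Rbl2 as untested. A gene has 1 representative probe set, from the first chip that holds one. The platform annotation gives 1 symbol to 10855, 10603 and 7739 probe sets, several to 396, 178 and 150, and none to 1193, 1652 and 4001, with symbols updated through RefSeq. Promoters came from RefSeq for 4 of 6 members. Alternatives were the block, scan session, the added value, the filter, the scaling and the samples used.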

Additional observations from a re-analysis of the deposited data

Results flagged for a closer look

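Cdk6 113777_at drew attention because its early to late change differed between cultures in a test of that difference (limma, adjusted p = 0.0054). The late minus early log2 value was -1.33 in P10, -1.66 in P6 and 0.47 in 1999. The adjusted p was 0.0042 to 0.0094 under other scalings and another added value, 0.027 without P6 and 0.017 without P10. It was 0.088 without the 1999 arrays of days 4 and 7, and 0.85 between P10 and P6 alone. On day 3, whose array was scanned in the same session as the 0 h array of its own culture in both P10 and 1999, the change was -1.71 in P10 and 0.09 in 1999. The 2 other Cdk6 probe sets were too low to test.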

How the results depend on the processing

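Counts of passing member probe sets changed as follows. With no replicate block, the pairing by culture dropped, 1 passed at 18 h, 2 at 24 h and 3 at 48 h, and over all probe sets 41 passed at 6 h and 2092 on day 7, against 268 and 3633 with the block. With the chip median added, 1 passed at 6 h, 2 at 12 h and 5 at 36 h. With scan session as the block, 1 passed at 6 h and 2 at 12 h. With culture and session as blocks, 2 passed at 12 h, 2 at 24 h, 3 on day 7 and 0 in the joint test. With only the 6 samples compared, 0 passed at 12 h, 1 at 48 h, 2 on day 3 and 1 on day 4, and over all probe sets 0 passed in limma at 6 h (2619 at an unadjusted p under 0.05) and 1525 on day 7. With culture and session as blocks 1322 of all passed on day 7, and with session alone 2194. Without the 1999 arrays of 36 h and 48 h, 1 passed at 6 h and 3 at 48 h. Chosen after seeing the data, leaving out the 1999 array of 48 h gave 1 at 6 h, 5 at 36 h and 3 at 48 h, and leaving out those of days 4 and 7 gave 3 at 12 h, 5 at 36 h, 5 on day 4, 5 in the joint test, and 0 in the test of early to late change by culture. Leaving out 1 culture at a time gave 0 at 6 h, 0 to 1 at 12 h, 0 to 2 at 18 h, 1 to 4 at 24 h, 1 to 4 at 36 h, 0 to 4 at 48 h, 1 to 6 on day 3, 1 to 6 on day 4, 3 to 7 on day 7, 0 to 4 in the joint test, 0 in the steps between neighbouring times, 0 to 4 in the difference between cultures and 0 to 1 in the early to late change by culture. Without 1999 the counts were 6 on day 3, 6 on day 4 and 7 on day 7. The cause of these shifts was not tested.

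None of the 29 calls reversed. Of all 99 changes 23 turned sign under at least 1 of 16 alternatives, none with an adjusted p under 0.62. The Ccnd2 97504_at change on day 7 became -0.049 without replicate 1999 (up to 0.485 without another culture) and -0.18 without its arrays of days 4 and 7. Ccnd1 94232_at at 24 h, 36 h and days 3, 4 and 7 passed under all 16. Quantile normalization and equal array medians kept 29 and 27 calls, and no filter kept 26. Of 46 calls of named pathway genes, 33 held with culture and session as blocks and 31 without P10. The median change of all probe sets stayed within -0.0666 and 0.0209 where 3 cultures were used.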
